A study of Homo sapiens with 6 samples.

Results

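The ZNF genes form the largest share of the human zinc finger transcription factors, and the members described here are those that lie outside chromosome 19. They were selected on their symbol, their chromosome and their mean level, as genes whose symbol is ZNF followed by a digit, whose annotated chromosome is not 19, and whose mean over the 6 libraries was at least 0.5 CPM, where CPM is the deposited count per 1e6 counts of that library. The table of 19655 genes held 262 ZNF genes off chromosome 19, of which 212 met this level, against 248 on chromosome 19, of which 153 met it. The mean level was the only measured value in this rule, but the members were chosen with earlier results of these data known. All 212 members passed the filter on low counts of the test. ZNF593OS matched the pattern by its symbol, which names it as an RNA from the opposite strand of ZNF593.

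The samples were labelled HCT116, a widely used epithelial line from a human colorectal carcinoma, grown in DMEM with serum. Some of the markers given below do not match that label. The 3 ASO libraries came from cells transfected with an antisense oligonucleotide against the small nucleolar RNA SNORA67, and the 3 NC libraries came from control cells of the same line. Such oligonucleotides base-pair with a chosen RNA and can cause it to be cut. Neither the oligonucleotide sequences, the dose, the time, nor the treatment of the control cells are given in the sources used here, and the level of SNORA67 was not analysed here. Whether the replicates were separate cultures is not stated, so the p-values reflect library-to-library spread that could be technical. The question addressed was which genes differ after the oligonucleotide against SNORA67.

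A C2H2 zinc finger is a short peptide fold held by a zinc ion, and arrays of such fingers read DNA sequence. Many ZNF proteins also carry a KRAB domain, which recruits the corepressor TRIM28 and, with it, histone methylation and silent chromatin, often over transposable elements. A smaller set carries a SCAN domain, through which the proteins pair. KRAB zinc finger genes arose by repeated duplication and often lie in clusters, the largest of them on chromosome 19. Other ZNF proteins have individual roles in chromatin complexes, in the activation of promoters, in ribosome assembly or in the handling of RNA.

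Total deposited counts were 54905215, 49136502 and 50637893 in the ASO libraries and 52540779, 53715905 and 50728524 in the NC libraries. Values piled up at 4 counts, so 1 sequenced fragment appears to be worth about 4 counts, and 12 counts (3 fragments) was taken as the smallest detected amount, 0.218 to 0.244 CPM by library; this limit covers counting error only. Of 18 colon epithelial markers, 8 were under 1 CPM in ASO and 11 in NC, with ESRP1 at 0 in both groups. EPCAM averaged 2.91 CPM in ASO and 4.399 CPM in NC, CDH1 1.79 CPM in ASO and 1.07 CPM in NC, and CDX2 0.190 CPM in ASO and 0.313 CPM in NC, while the mesenchymal VIM averaged 1281 CPM in ASO and 1208 CPM in NC and COL5A1 1271 CPM in ASO and 615 CPM in NC. Other members of both lists went the other way. Epithelial ELF3 averaged 52.8 CPM in ASO and 69.6 CPM in NC, and LGALS4 17.9 CPM in ASO and 0.00657 CPM in NC. Of 14 mesenchymal markers 2 were under 1 CPM in ASO and 4 in NC, with PRRX1 at 0 in both groups. Mesenchymal LUM averaged 1.86 CPM in ASO and 4.56 CPM in NC. The low EPCAM, CDH1 and ESRP1 levels go against an epithelial colon line in both groups, but neither list went 1 way. The cells are therefore called here only by their ASO and NC labels. The summed epithelial level, 1749 to 2212 CPM in ASO and 2016 to 2282 CPM in NC, lay almost wholly in KRT8 and KRT18. Mesenchymal markers summed to 3340 to 3794 CPM in ASO and 2625 to 2883 CPM in NC, and 9 blood and endothelial markers to 25.5 to 33.4 CPM in ASO and 12.03 to 13.25 CPM in NC, with PTPRC and CD3E at 0 in both groups. The part of these differences in the results on ZNF genes was not tested. Fewer cells of a type and less RNA per cell cannot be told apart in such bulk libraries.

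The promoters of 175 members were found in RefSeq (GRCh38.p14), and 3 words were searched in them on both strands, namely TGANTCA for AP-1, TGACGTCA for the cyclic AMP response element (CRE) and GGGANTTCC for NF-kB. Each window runs from 250 bases before to 50 bases after the annotated start. The windows below are shown because they belong to members that were higher in ASO and hold 1 of the words, which is in capitals; each is printed 5′ to 3′ on the strand of the gene. In ZNF697 and ZNF641 the capitals mark the NF-kB word, which begins 93 and 32 bases before the start. In ZNF143 they mark the CRE word, which begins 164 bases before it. The windows are chr1:119648217-119648516 on the minus strand for ZNF697, chr12:48350870-48351169 on the minus strand for ZNF641 and chr11:9460762-9461061 on the plus strand for ZNF143.
ZNF697: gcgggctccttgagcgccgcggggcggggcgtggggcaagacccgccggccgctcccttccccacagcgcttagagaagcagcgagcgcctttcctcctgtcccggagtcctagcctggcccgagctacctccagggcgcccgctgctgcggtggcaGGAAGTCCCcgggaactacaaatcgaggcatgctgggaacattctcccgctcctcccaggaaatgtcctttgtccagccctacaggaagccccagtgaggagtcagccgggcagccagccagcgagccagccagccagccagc
ZNF641: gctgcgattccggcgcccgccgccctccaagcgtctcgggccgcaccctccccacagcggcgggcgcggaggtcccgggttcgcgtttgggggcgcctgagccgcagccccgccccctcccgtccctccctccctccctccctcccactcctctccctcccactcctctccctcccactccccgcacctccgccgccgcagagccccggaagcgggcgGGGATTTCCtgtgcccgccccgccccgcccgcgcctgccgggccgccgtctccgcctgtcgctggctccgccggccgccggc
ZNF143: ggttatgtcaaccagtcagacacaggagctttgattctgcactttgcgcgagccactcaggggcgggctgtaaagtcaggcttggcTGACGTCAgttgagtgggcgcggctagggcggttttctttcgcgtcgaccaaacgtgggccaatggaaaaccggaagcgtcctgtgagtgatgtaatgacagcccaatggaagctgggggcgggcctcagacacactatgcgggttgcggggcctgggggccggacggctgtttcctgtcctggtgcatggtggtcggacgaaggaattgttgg
The NF-kB word stood in 5 of the 60 promoters of members that were higher in ASO (8.33%), namely those of ZNF140, ZNF385C, ZNF641, ZNF697 and ZNF853. ZNF385C and ZNF853 reached 0.5 CPM only in ASO and so had to be higher; without such members the count was 3 of 57 (5.26%). It stood in 0 of 11 promoters of members that were lower, in 4.57% of all 175 and in 2.39% of the 11154 promoters of genes tested. The AP-1 word stood in 1 promoter of a higher member (1.67%), in 7 of the 175 members' promoters and in 4.80% of those of genes tested. The CRE word was found in 3 promoters of higher members (5.00%), in 4.57% of the members' promoters and in 3.19% of those of genes tested. These matches are a description of the letters, and the counts are small.

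The ZNF genes off chromosome 19 were more often higher than lower in ASO. Of the 212 members, 78 (36.8%) were higher and 14 (6.60%) were lower at an adjusted p under 0.05, by the quasi-likelihood test of edgeR with Benjamini-Hochberg adjustment over all 14062 genes tested, and 120 were not called. The count lower was 23 without ASO replicate 2 and 9 without ASO replicate 3, NC replicate 2 or NC replicate 3. Over all genes tested the same rule called 26.8% higher and 19.1% lower. Of the 212 members, 34 were called at least 2-fold higher and 4 at least 2-fold lower, against 16.9% and 3.90% of all genes tested. Neither share exceeded that of all genes tested. Of the 13184 tested genes at a mean of 0.5 CPM, the level asked of members, 2012 were called at least 2-fold higher and 538 at least 2-fold lower. The share higher among them was slightly under that of the members. The 34 include 6 members that reached 0.5 CPM only in ASO and so had to be high there. The median fitted log2 fold change was 0.31 over the members and 0.01 over all genes tested, and 136 members had a positive value. The members' median was 0.30 with the trend on GC content and length removed and centred on the median of all genes, and -0.19 (all genes -0.48) with mean-centred residuals, the centring run first. The 153 ZNF genes on chromosome 19 gave 50 higher and 3 lower, with a median log2 fold change of 0.41. The difference between the 2 sets of ZNF genes was not tested.

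**Figure D1:**
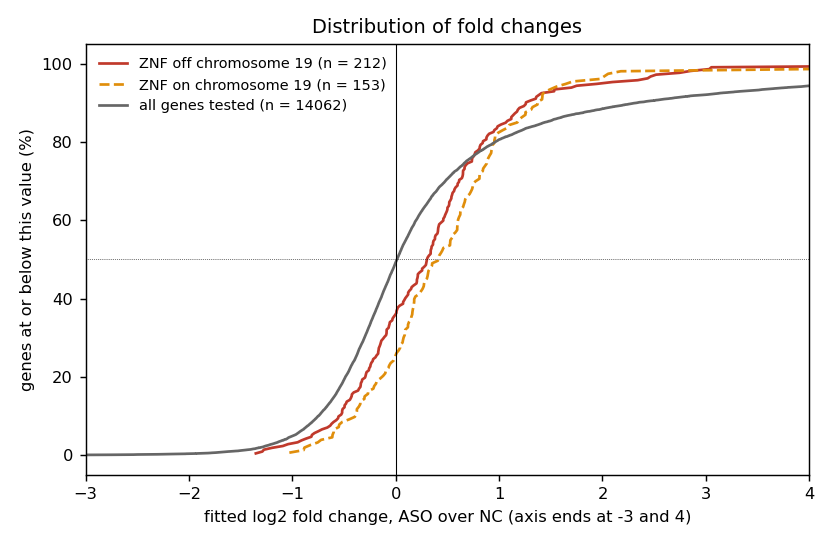
Cumulative share of genes (vertical axis, %) by fitted log2 fold change of ASO over NC (horizontal axis), for 212 ZNF genes off chromosome 19, 153 ZNF genes on chromosome 19 and 14062 genes tested. The curve of the members crosses the middle of the vertical axis at 0.31, to the right of that of all genes at 0.01, and the curve of all genes lies below both at its far right end.

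The summed level of the members was 5475, 5536 and 5547 CPM in the ASO libraries and 4360, 4382 and 4395 CPM in the NC libraries. The sums averaged 5519 ± 38.9 CPM in ASO and 4379 ± 17.9 CPM in NC (SD, n = 3 each), and the groups did not overlap. Every ASO value of 94 members lay above every NC value, and every ASO value of 27 members lay below, where 31.4% and 26.6% of all genes tested did so. By library, 112, 128 and 112 members in ASO replicates 1, 2 and 3 exceeded all NC values, and 69, 42 and 58 lay below all of them. ASO replicate 2 therefore held the fewest low members and the most high ones.

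**Figure D2:**
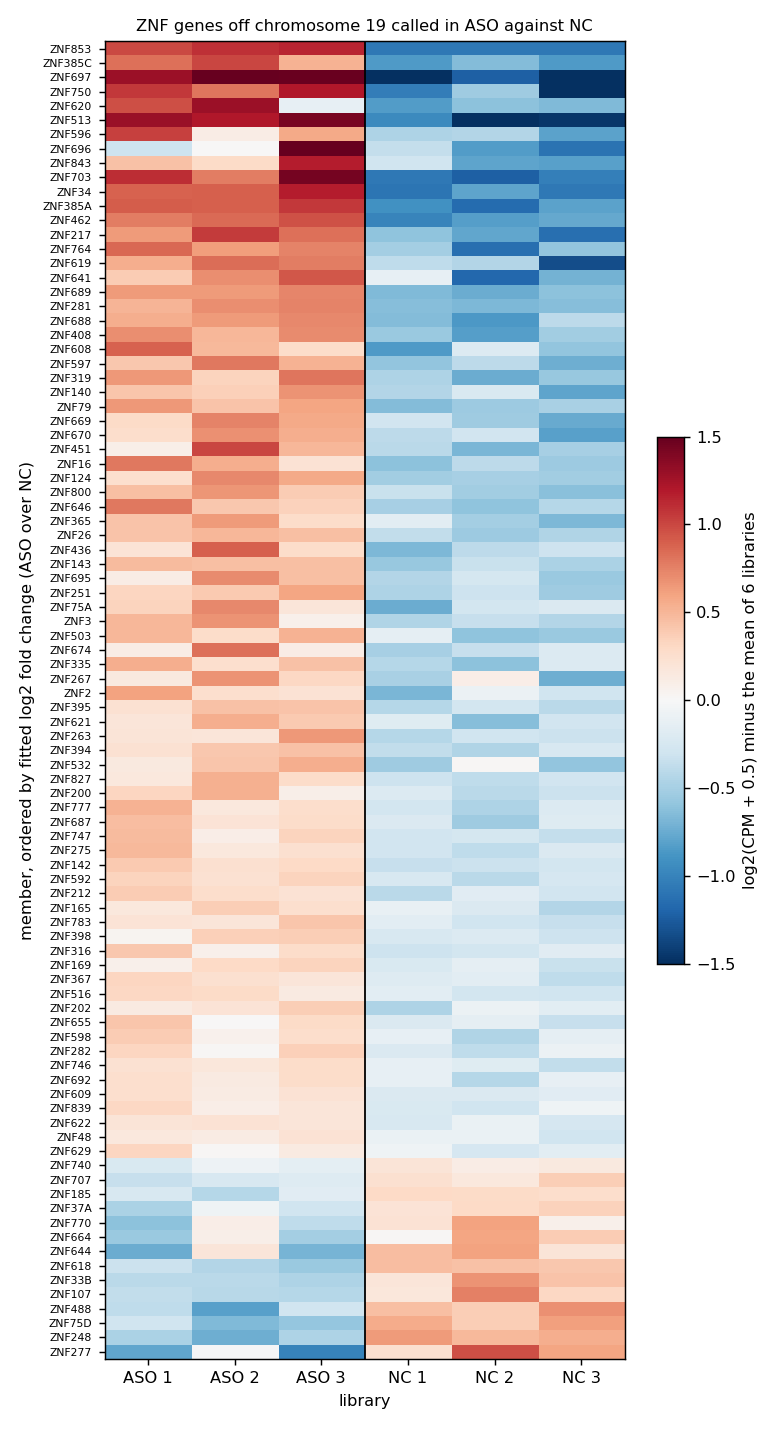
Level of the 92 called members (rows, ordered by fitted log2 fold change) in the 3 ASO and 3 NC libraries (columns), coloured by log2(CPM + 0.5) minus the mean over the 6 libraries. The 78 members at the top are mostly red in ASO and the 14 at the bottom mostly blue in ASO. Exceptions include ZNF664, which lies slightly above its mean in ASO replicate 2. ZNF696 is deep red only in ASO replicate 3 and lies below its mean in ASO replicate 1.

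A mean of 0.5 CPM was reached in both groups by 203 members, of which 72 were higher and 14 lower. It was reached only in ASO by 7 members, ZNF750, ZNF620, ZNF853, ZNF843, ZNF596, ZNF593OS and ZNF385C, and only in NC by ZNF280B and ZNF467. Members that entered through their ASO level alone had to be high there, and their calls say nothing of the set. Just inside the level stood ZNF467 with a mean of 0.313 CPM in ASO and 0.807 CPM in NC, ZNF593OS with 0.628 CPM in ASO and 0.466 CPM in NC, and ZNF385C with 1.06 CPM in ASO and 0.0248 CPM in NC. Just outside stood ZNF117 with 0.193 CPM in ASO and 0.649 CPM in NC, ZNF487 with 0.406 CPM in ASO and 0.323 CPM in NC, and the read-through gene ZNF511-PRAP1 with 0.371 CPM in ASO and 0.269 CPM in NC.

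Of the members with a KRAB domain 35.4% were higher, and of those with neither a KRAB nor a SCAN domain 40.2%, against 26.8% of all genes tested. KRAB domains were found in 99 members, of which 35 were higher and 6 lower, with a median log2 fold change of 0.34. The 102 members with neither domain gave 41 higher and 8 lower, with a median of 0.31. The 10 members with a SCAN domain alone gave 2 higher and 0 lower, with a median of -0.01, and the 9 with both domains gave 3 higher and 1 lower. Median transcript GC content was 43.9% with a KRAB domain and 51.2% with neither domain. With the trend on GC content and length removed (centred on the median of all genes), the medians were 0.40 with KRAB, 0.24 with neither and -0.01 with SCAN alone. The members held 0 to 35 fingers, with a median of 9. Of the 47 members with 13 or more fingers, 9 were higher (19.1%) and 2 lower, against 27 higher (42.9%) and 6 lower among the 63 with 5 or fewer. The counts higher in these classes and finger sets include the 6 called members that reached 0.5 CPM only in ASO and so had to be high there. These differences between classes were not tested.

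Transcript GC content moved with the direction of change, in the members and in all genes. Among the 53 members with the lowest GC content (33.8 to 41.0%), 8 were higher and 7 lower. Of the next 53 (41.2 to 47.1%) 16 were higher and 1 lower, of the next 52 (47.2 to 56.3%) 27 were higher and 4 lower, and of the 53 with the highest GC content (56.3 to 70.1%) 27 were higher and 2 lower. Over all genes tested in those 4 ranges, 8.90%, 16.9%, 30.7% and 39.0% were higher, and 31.5%, 27.7%, 18.8% and 7.89% were lower. In each range the members were higher more often, and lower less often, than all genes tested there, a difference given without a test. Across genes, Spearman's rho of log2 fold change with GC content was 0.27 over 211 members and 0.37 over 13910 genes, which share their libraries and are not independent replicates. The counts higher by range also include the 6 called members that reached 0.5 CPM only in ASO. The part of GC content in the calls on single members was not tested.

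**Figure D3:**
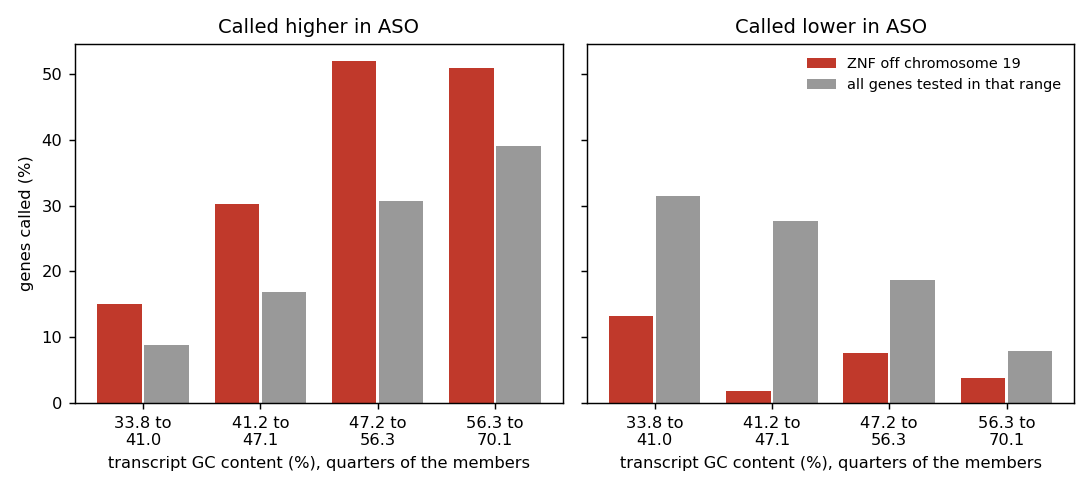
Share of genes called higher (left) and lower (right) in ASO, in %, in 4 ranges of transcript GC content that each hold 52 or 53 members, for the ZNF genes off chromosome 19 (red) and all genes tested in the same range (grey). The red bars rise to 51.9% and 50.9% in the last 2 ranges of the left panel, and in the right panel they stay below the grey bars in every range.

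In 4 equal sets of 53 members, from the lowest to the highest mean CPM, 11, 16, 24 and 27 were higher and 2, 5, 2 and 5 were lower. Called at least 2-fold higher were 10, 8, 9 and 7. The 10 in the lowest set include 6 members that reached 0.5 CPM only in ASO and so had to be high there. Across genes, Spearman's rho of log2 fold change with mean CPM was 0.11 over the 212 members and -0.24 over the 14062 genes tested. The genes tested include some under a mean of 0.5 CPM, which the members by rule do not, so the 2 values cover unlike ranges of level. Low members also had fewer counts behind their values.

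Of the 14 listed ZNF members tied to chromatin complexes, 9 were higher (64.3%), 2 lower (14.3%) and 3 not called, with a median log2 fold change of 0.63, against 26.8% higher and 19.1% lower of all genes tested. This list was chosen with earlier results of these data known. ZNF592, ZNF687 and ZNF532 act together with ZMYND8 in 1 complex, and all 3 were higher. ZNF592 had 180, 168 and 180 CPM in the ASO libraries against 121, 108 and 120 CPM in the NC libraries, a log2 fold change of 0.61 ± 0.09 (SE; adjusted p = 0.00134). ZNF687 averaged 62.3 ± 5.71 CPM in ASO and 40.2 ± 4.99 CPM in NC (SD, n = 3 each), and the groups of both genes did not overlap. ZNF532 averaged 77.3 ± 10.8 CPM in ASO and 47.0 ± 11.7 CPM in NC, and its adjusted p of 0.0127 became 0.0536 without ASO replicate 3, 0.0541 without NC replicate 1 and 0.0504 without NC replicate 3.

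ZNF217 encodes a protein bound to CoREST and CtBP corepressors and is amplified in breast cancers. It lies at chr20:53567071-53608892 on hg38 and had 97.2, 129 and 111 CPM in ASO against 40.7, 36.0 and 28.2 CPM in NC. Its fitted change was 3.25-fold (log2 fold change 1.70 ± 0.16, adjusted p = 0.000123). ZNF462, a large protein with 34 fingers by the pattern used here, lies at chr9:106863166-107013634. It had 80.8, 85.8 and 92.1 CPM in ASO and 23.6, 26.5 and 27.7 CPM in NC, a 3.36-fold rise (log2 fold change 1.75 ± 0.11, adjusted p = 1.99e-05). In both genes the lowest ASO library was more than 2-fold above the highest NC library. ZNF451, a SUMO ligase, had 32.9, 62.2 and 43.8 CPM in ASO and 23.1, 18.99 and 21.6 CPM in NC, and rose 2.20-fold with a wide spread among the ASO libraries (adjusted p = 0.00407).

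ZNF335, which acts in a histone methyltransferase complex in neural progenitors, averaged 131 ± 12.9 CPM in ASO and 74.1 ± 10.6 CPM in NC (adjusted p = 0.00221). ZNF516, found with corepressors, and ZNF827, which brings NuRD to telomeres, were also higher, by 1.43-fold and 1.62-fold (adjusted p = 0.0107 and 0.00669). The 2 that were lower were ZNF618 and ZNF644. ZNF618, a partner of UHRF2 that binds hydroxymethylated DNA, lies at chr9:113876282-114056593 and had 28.995, 26.7 and 24.5 CPM in ASO against 50.3, 49.4 and 48.4 CPM in NC. It fell by 0.87 on the log2 scale (SE 0.11, adjusted p = 0.00065), and its 2 groups lay far apart. ZNF644, which joins WIZ in the G9a and GLP methyltransferase complex, averaged 6.87 ± 2.88 CPM in ASO and 12.2 ± 1.79 CPM in NC. Its adjusted p of 0.0442 rose above the threshold without any single library other than ASO replicate 2, to at most 0.137, and was 0.0528 when scaled by library size alone.

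**Figure D4:**
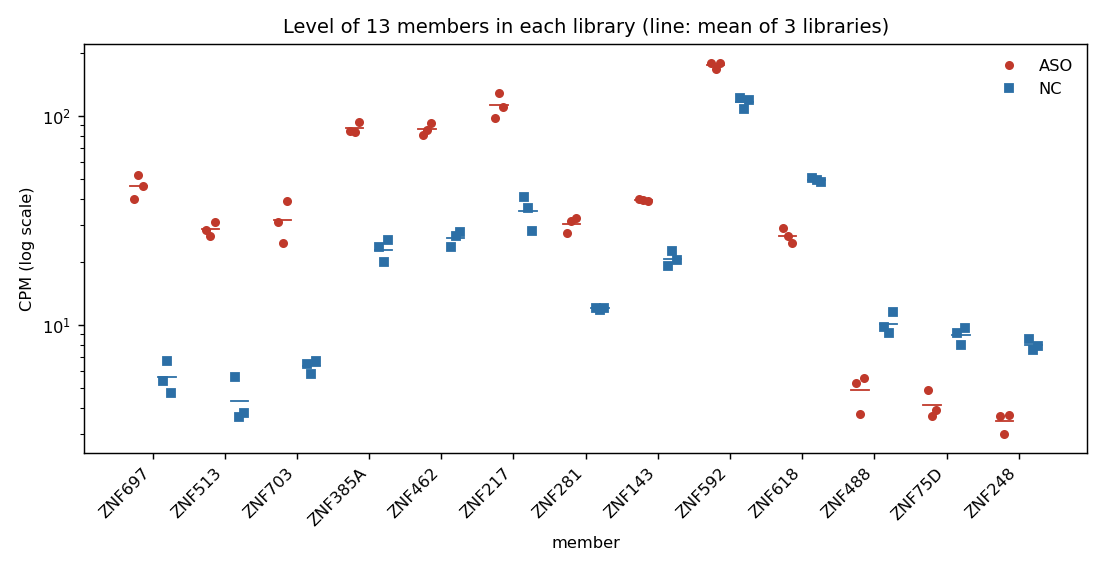
Level in CPM (vertical axis, log scale) of 13 members in each of the 3 ASO (circles) and 3 NC (squares) libraries, with a line at the mean of 3. ZNF697, ZNF513, ZNF703, ZNF385A, ZNF462, ZNF217, ZNF281, ZNF143 and ZNF592 lie higher in ASO in every library, and ZNF618, ZNF488, ZNF75D and ZNF248 lie lower.

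Of 19 listed sequence-specific transcription factors 17 were members, and 10 of these were higher (58.8%), 0 lower and 7 not called. Their median log2 fold change was 0.50. Of all genes tested 26.8% were higher and 19.1% lower. The 10 include ZNF750, which reached 0.5 CPM only in ASO and so had to be high there. The list was chosen with earlier results of these data known. ZNF423 and ZNF711 were listed at 0 in all 6 libraries. ZNF703 and ZNF503 encode related repressors, and ZNF703 is amplified in luminal breast cancers. ZNF703 had 31.1, 24.5 and 39.1 CPM in ASO against 6.49, 5.79 and 6.68 CPM in NC, a 5.07-fold rise (log2 fold change 2.34 ± 0.21, adjusted p = 9.64e-05). ZNF503 averaged 57.4 ± 5.27 CPM in ASO and 31.7 ± 5.94 CPM in NC (adjusted p = 0.00317). ZNF281, a factor linked to pluripotency and to epithelial to mesenchymal transition, had 27.5, 31.3 and 32.3 CPM in ASO against 12.1, 11.8 and 12.1 CPM in NC. It rose 2.57-fold (log2 fold change 1.36 ± 0.13, adjusted p = 0.000124). ZNF148, a relative of ZNF281, averaged 9.98 ± 4.24 CPM in ASO and 15.4 ± 1.29 CPM in NC and was not called (adjusted p = 0.131).

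ZNF143 activates many promoters, among them those of small nuclear RNA genes, and its promoter window is the one printed above with a CRE word. It had 40.1, 39.5 and 39.3 CPM in ASO and 19.1, 22.6 and 20.4 CPM in NC, a 1.94-fold rise (log2 fold change 0.95 ± 0.11, adjusted p = 0.000483). The 3 ASO values were closer together than the NC values. ZNF750, a regulator of epidermal differentiation, had 3.04, 2.46 and 3.38 CPM in ASO and 0.324, 0.670 and 0.0986 CPM in NC (adjusted p = 0.00435). It lies wholly within TBCD on the opposite strand, and the strand setting of the counts is not given in the sources used here. ZNF395, ZNF263, ZNF746 and ZNF365 were higher by 1.70-fold, 1.67-fold, 1.39-fold and 2.03-fold. ZNF746 represses the gene of the mitochondrial regulator PGC-1alpha. ZNF202, a repressor of lipid metabolism genes, was 1.42-fold higher with an adjusted p of 0.0356, which rose to at most 0.129 when 1 of 4 libraries was left out (ASO replicate 1 or 3, NC replicate 1 or 3).

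Of the 12 listed members with roles at the ribosome or on RNA, 3 were higher (near the 26.8% of all genes tested), 1 lower and 8 not called, with a median log2 fold change of -0.10. This list, too, was chosen with earlier results of these data known. ZNF598, the ubiquitin ligase that senses collided ribosomes, averaged 162 ± 17.7 CPM in ASO and 117 ± 14.7 CPM in NC. Its adjusted p of 0.0184 was 0.0592 without ASO replicate 1 and 0.0632 without ASO replicate 3. ZNF622, whose yeast counterpart helps to mature the large ribosomal subunit, had 95.5, 97.2 and 94.4 CPM in ASO and 70.7, 77.8 and 70.0 CPM in NC. It rose 1.33-fold (log2 fold change 0.41 ± 0.09, adjusted p = 0.00645), and the groups did not overlap. ZNF385A, which binds p53 and messenger RNA, lies at chr12:54369133-54391298. It had 84.2, 83.5 and 93.7 CPM in ASO against 23.5, 19.9 and 25.3 CPM in NC, a 3.85-fold rise (log2 fold change 1.94 ± 0.13, adjusted p = 2.39e-05).

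ZNF207, a spindle protein that binds BUB3, had the highest level of all members both in CPM and per length, with 106 CPM per kb of transcript. It had 175, 202 and 209 CPM in ASO and 196, 233 and 203 CPM in NC, and the groups overlapped (log2 fold change -0.09, 95% confidence interval -0.32 to 0.14, adjusted p = 0.476). Next per length came ZNF622 with 49.6, ZNF593 with 46.0 and ZNF598 with 41.4 CPM per kb, each as the mean over the 6 libraries. Among the other abundant members, ZNF142 averaged 153 ± 8.55 CPM in ASO and 99.1 ± 2.36 CPM in NC (adjusted p = 0.000966), and ZNF609 averaged 154 ± 7.51 CPM in ASO and 116 ± 2.31 CPM in NC (adjusted p = 0.00592). ZNF664 and ZNF740 were lower, at 80.6 ± 21.3 and 92.2 ± 4.69 CPM in ASO against 126 ± 24.8 and 114 ± 3.57 CPM in NC. Their adjusted p-values of 0.0325 and 0.0239 passed the threshold with all 6 libraries but reached up to 0.122 and 0.0927 when 1 of 4 libraries was left out (NC replicate 3 and ASO replicates 1 and 3 for both, with NC replicate 2 for ZNF664 and NC replicate 1 for ZNF740).

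Of the 10 largest rises 6 belong to members that reached 0.5 CPM only in ASO, so their low control levels follow from how members were chosen; ZNF697, ZNF513, ZNF703 and ZNF696 reached it in both groups. ZNF697, at chr1:119619377-119648266, had 40.1, 51.8 and 46.1 CPM in ASO against 5.41, 6.68 and 4.71 CPM in NC, an 8.30-fold rise (log2 fold change 3.05 ± 0.17, adjusted p = 1.05e-05). ZNF513, at chr2:27377235-27380790, had 28.5, 26.7 and 31.0 CPM in ASO and 5.60, 3.63 and 3.78 CPM in NC, a 6.70-fold rise (log2 fold change 2.74 ± 0.21, adjusted p = 4.37e-05). Both genes stood well apart between the groups in every library. ZNF513, a factor of the retina, overlaps SNX17 on the opposite strand by 301 bases. ZNF853 had 1.60, 1.75 and 1.84 CPM in ASO and 0 in all 3 NC libraries, at least 7.54-fold higher against the limit of 12 counts per NC library. ZNF385C, a relative of ZNF385A, had 1.09, 1.30 and 0.790 CPM in ASO and 0, 0.0745 and 0 CPM in NC.

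ZNF620, ZNF596 and ZNF843 averaged 1.57 ± 0.904, 1.04 ± 0.481 and 1.37 ± 0.650 CPM in ASO against 0.216 ± 0.0569, 0.183 ± 0.0905 and 0.254 ± 0.159 CPM in NC. The adjusted p of ZNF596 was 0.0138 and became 0.0613 without ASO replicate 1, and that of ZNF843 was 0.0130 and became 0.0625 without ASO replicate 3. ZNF696 had 2.31, 2.99 and 20.8 CPM in ASO and 2.23, 1.45 and 1.12 CPM in NC. ASO replicate 3 set its fitted log2 fold change of 2.47, which was 0.73 without that library (adjusted p = 0.182), and its call was also lost in 9 other settings.

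The largest falls among called members were smaller than the largest rises. ZNF248, a KRAB gene, had 3.68, 2.99 and 3.69 CPM in ASO and 8.55, 7.60 and 7.94 CPM in NC, and fell by 1.20 on the log2 scale (SE 0.19, adjusted p = 0.00175). ZNF75D, with KRAB and SCAN domains, had 4.86, 3.66 and 3.89 CPM in ASO and 9.17, 8.02 and 9.62 CPM in NC (adjusted p = 0.00331). Neither gene overlapped between the groups. ZNF488, a factor of oligodendrocytes, had 5.25, 3.74 and 5.57 CPM in ASO and 9.74, 9.14 and 11.5 CPM in NC (adjusted p = 0.00633). ZNF277 had the largest fitted fall among called members, 1.29 on the log2 scale, with 2.79 ± 1.25 CPM in ASO and 6.86 ± 1.86 CPM in NC. Its adjusted p of 0.017 reached up to 0.0662 without ASO replicate 1, ASO replicate 3 or NC replicate 2.

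The KRAB genes ZNF107, ZNF33B and ZNF37A averaged 2.32 ± 0.0598, 4.66 ± 0.102 and 15.1 ± 2.25 CPM in ASO and 4.53 ± 1.11, 8.88 ± 1.60 and 22.4 ± 1.15 CPM in NC. ZNF107 was no longer called without NC replicate 2 (adjusted p = 0.0553), nor ZNF37A without ASO replicate 3 or NC replicate 3 (0.0532 and 0.0568). ZNF185, a LIM domain protein of the actin cytoskeleton in which no C2H2 finger was found, averaged 24.6 ± 2.27 CPM in ASO and 36.5 ± 0.396 CPM in NC (adjusted p = 0.00778).

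The fold changes of members that lie near each other did not share a sign as a rule, called or not. Groups were formed of members within 200 kb of the next, which gave 28 groups with 95 members, and the genes named from them were chosen after their values were seen. Of these 95 members 35 were higher and 5 lower, against 43 higher and 9 lower of the 117 without such a neighbour, so nearness alone did not separate the calls. In 8 of the 28 groups every member had a fold change of the same sign, and 20 groups held both signs. Of the 16 groups of 2 members, 6 had a single sign. These signs include members that were not called. Where a group held several called members, all were called in the same direction, though only 5 of the 95 were lower. On chromosome 16, 15 of 29 members (51.7%) were higher and 0 lower, at a median transcript GC content of 58.95%. Of these 15, ZNF843 reached 0.5 CPM only in ASO and so had to be high there. Of all genes tested 26.8% were higher and 19.1% lower, and of those with a GC content from 56.3% up 39.0% and 7.89%. On chromosome 8, 7 of 13 members (53.8%) were higher and 1 lower. The 7 include ZNF596, which reached 0.5 CPM only in ASO and so had to be high there. They also include ZNF696, whose fold change was set by ASO replicate 3. On chromosome 10 the calls went the other way, with 2 of 14 members (14.3%) higher and 4 (28.6%) lower. These chromosomes were picked after their values were seen. The group at chr16:30378312-30787205 held 9 members, of which 6 were higher and 0 lower. Its median log2 fold change was 0.41 and its median transcript GC content 59.1%. Within it ZNF764 averaged 28.6 ± 2.35 CPM in ASO and 10.0 ± 2.29 CPM in NC, and ZNF689 averaged 50.9 ± 1.95 CPM in ASO and 19.7 ± 0.928 CPM in NC.

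The group at chr7:149069641-149497817 held 8 KRAB members, among them ZNF746, of which 6 were higher and 0 lower. Its median transcript GC content was 57.2%. At chr1:246945675-247331867, 4 of 5 members were higher (ZNF695, ZNF670, ZNF669 and ZNF124), with a median log2 fold change of 1.12 and a median GC content of 43.1%. ZNF619, ZNF620 and ZNF621 at chr3:40477113-40539794 were all higher, at a median GC content of 45.3%. Of these, ZNF620 reached 0.5 CPM only in ASO and so had to be high there. The group at chr10:37776526-38150293, with ZNF248, ZNF25, ZNF33A and ZNF37A, gave 0 higher and 2 lower, at a median GC content of 38.6%. That at chr7:64519878-64930981, with ZNF680, ZNF107, ZNF138 and ZNF273, gave 0 higher and 1 lower, at 36.4%. Paralogs in such groups share sequence, and how the counting treated reads that match several of them is not given in the sources used here. Of the 212 members 48 overlap another gene of the table, 20 of them called.

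The genes through which KRAB zinc finger proteins act were more often lower than higher. Of 36 listed corepressor and heterochromatin genes 35 were tested, and 4 were higher, 13 lower and 18 not called, with a median log2 fold change of -0.39, against 26.8% higher and 19.1% lower over all genes tested. With the trend on GC content and length removed (centred on the median of all genes) this median was -0.23. TRIM28, the direct partner of the KRAB domain, averaged 428 ± 38.6 CPM in ASO and 457 ± 38.9 CPM in NC and was not called (adjusted p = 0.586), nor was the methyltransferase gene SETDB1 (adjusted p = 0.149). The remodellers of the NuRD complex CHD4 and CHD3 averaged 460 ± 1.76 and 235 ± 6.23 CPM in ASO and 600 ± 6.85 and 317 ± 15.6 CPM in NC (adjusted p = 0.00297 and 0.0026). ATRX, a remodeller at heterochromatin, had 13.8, 30.4 and 19.8 CPM in ASO against 55.4, 57.1 and 47.9 CPM in NC (log2 fold change -1.31 ± 0.25, adjusted p = 0.00414). SMARCAD1 averaged 9.40 ± 1.97 CPM in ASO and 20.3 ± 4.90 CPM in NC (adjusted p = 0.0051). The 4 that were higher were DNMT1, MTA2, UHRF1 and WIZ. The median transcript GC content of the listed genes was 46.6% (range 36.0 to 64.6%), against 47.1% for the members. Of the listed genes tested 11.4% were higher and 37.1% lower. Among all genes tested with a GC content of 41.1 to 47.1%, which holds that median, 16.9% were higher and 27.7% lower. The part of GC content in these calls was not tested, and the list was chosen with earlier results of these data known.

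**Figure D5:**
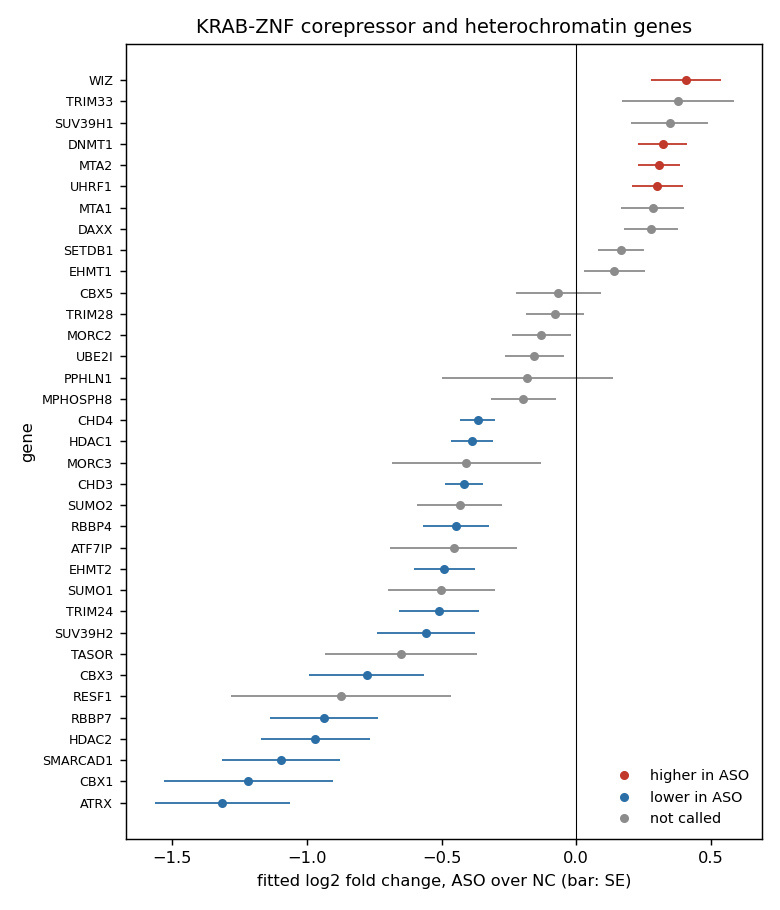
Fitted log2 fold change of ASO over NC (horizontal axis, bars are the SE) of the 35 tested corepressor and heterochromatin genes, coloured by the call. The 13 lower genes reach down to ATRX at -1.31, and the 4 higher genes (WIZ, DNMT1, MTA2 and UHRF1) stay under 0.5.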

How the data were processed

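Total RNA of 3 ASO and 3 NC libraries was sequenced, and the authors deposited estimated counts per gene symbol (whole numbers, not scaled to depth). Tools in the submitters' processing notes are STAR, StringTie, FastQC and DESeq2, with build hg38, with no versions or roles; for the annotation, strand setting and multiply matching reads, nothing was found (not given in the sources used here). From these counts, ASO and NC were compared in edgeR 4.0.16 with its robust quasi-likelihood test (R 4.3.3, limma 3.58.1), without a replicate block, after filterByExpr (minimum count 10, minimum total count 15) and TMM scaling. Adjusted p-values follow Benjamini-Hochberg over 14062 genes, with a threshold of 0.05. Levels are CPM on the column totals; fold changes are those of the model. The SE is the log2 fold change divided by the root of F. The test was checked on simulated counts.

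KRAB and SCAN domains, C2H2 fingers, transcript length and GC content came from GENCODE 29, which matched 211 members. The cut of the domain profiles was set after their scores, but not the fold changes, were viewed.

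Named members are the 8 highest by mean CPM, the 10 largest rises and 10 largest falls among called members whose groups did not overlap, called members of the 3 role lists, the 3 just inside and 3 just outside 0.5 CPM, and the 4 corepressor genes with the smallest p; others named were chosen after their values were seen. Members and lists were chosen with earlier results of these data known. Domain classes, ranges of GC content, level and finger number, 20 chromosomes, 28 neighbour groups, 3 promoter words and 3 role lists were examined. Alternatives were 3 scalings, 2 filters, DESeq2 1.42.0, limma-voom, a replicate block, each library left out, counts divided by 4, other level thresholds and removal of a GC and length trend.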

Additional observations from a re-analysis of the deposited data

How the results depend on the processing

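The count of members higher in ASO, 78, lay between 64 and 85 over every setting run, and the count lower, 14, lay between 9 and 23. Leaving out 1 library gave 64 to 78 higher and 9 to 23 lower; the count lower was 23 without ASO replicate 2 and 9 without ASO replicate 3, NC replicate 2 or NC replicate 3. The median log2 fold change of the members lay between 0.26 and 0.34 in all settings but one. That setting removed the trend of fold change on transcript GC content and length with residuals centred on their mean, and it turned the median to -0.19. The same step moved the median of all genes tested to -0.48. It was the centring first run. The version centred on the median of all genes, which gave 0.30 for the members and 0.01 for all genes, was chosen after that result was seen, so the direction of the members' median depends on the centring. The members lay 0.29 above all genes under both. With mean centring 25 of the 78 higher members and 0 of the 14 lower ones changed sign, against 1 and 0 with median centring; among the members named by rule these were ZNF592 -0.0092, ZNF598 -0.53, ZNF609 -0.21, ZNF142 -0.26, ZNF335 -0.20, ZNF622 -0.30, ZNF687 -0.31, ZNF503 -0.14, ZNF395 -0.10, ZNF746 -0.56, ZNF263 -0.24, ZNF516 -0.21 and ZNF202 -0.15.

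The difference in the members' summed level, 1140 CPM, was 1198 CPM with TMM-scaled values and 1156 CPM without ZNF207. Of the 92 called members, 71 to 87 were still called in the same direction when 1 library was left out, and 88 to 92 in the other refits of the test. With a replicate block 85 members were higher and 20 lower. The labels do not say that equal numbers mark pairs, and same-numbered libraries had correlations of 0.13, 0.41 and 0.088 in their deviations, not all above 0.1, with ASO replicate 1 closest to NC replicate 3. Members near 0.5 CPM rest on few fragments. The table gives no depth beyond the step of 4 counts.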

Other observations

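Zinc finger genes outside the ZNF symbols are given beside the shares of all genes tested, 26.8% higher and 19.1% lower. Of 41 tested ZBTB genes, which pair a BTB domain with zinc fingers, 17 (41.5%) were higher in ASO and 5 (12.2%) lower, with a median log2 fold change of 0.36. Of 24 tested ZSCAN and ZKSCAN genes 8 (33.3%) were higher, near the share of all genes, and 1 lower, with a median of 0.45, and of 16 tested ZFP genes 8 were higher and 1 lower, with a median of 0.31. The ZFP pattern also takes in ZFP36, ZFP36L1 and ZFP36L2, which bind AU-rich messenger RNA through fingers of another kind and are not C2H2 factors. ZFP36L1 had 248, 224 and 249 CPM in ASO against 91.5, 80.0 and 87.5 CPM in NC (log2 fold change 1.49 ± 0.10, adjusted p = 2.2e-05 by the quasi-likelihood test of edgeR). ZSCAN10, a factor of pluripotent cells, had 3.02, 3.40 and 3.36 CPM in ASO and 0 in all 3 NC libraries. ZBTB20 had 1.71, 4.54 and 2.94 CPM in ASO and 10.9, 10.8 and 9.78 CPM in NC (log2 fold change -1.77 ± 0.32, adjusted p = 0.00326). These genes were chosen after their values were seen.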
